A study of Mus musculus with 10 samples.

Results

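Hepatokines are proteins that the liver secretes into the blood, and 8 of their genes are described here across the livers of fasted and refed mice: Angptl4, Angptl6, Angptl8, Gdf15, Fetub, Ahsg, Inhbe and Lect2. They were taken by name, each matched a single Ensembl gene, and all 8 passed the filter on low counts, out of 41388 genes in the count tables and 13444 that could be tested. Whole liver of C57B/6J mice aged 12 weeks was sequenced as polyadenylated RNA, with 1 library per mouse. The 2 WT Refed mice had fasted for 22 h and then eaten for 2 h, whereas the 3 WT Fasting mice and the 5 NAMPT LKO Fasting mice had fasted for 24 h. The paper instead speaks of random-fed controls and of 12 h of fasting, so the feeding state is named here as the labels give it. WT and NAMPT LKO mice were littermates that both carried LoxP sites on each Nampt allele. NAMPT LKO mice also carried Albumin-cre, a transgene active in hepatocytes. The paper describes the excision as specific to hepatocytes, and Nampt in the other cells of the liver was not measured separately. A NAMPT LKO group that had eaten was not analysed here. The questions were therefore how the hepatokine genes differed between fasted and refed WT livers, and whether they differed between fasted livers with and without hepatocyte NAMPT, the enzyme that limits the salvage of nicotinamide into NAD.

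The angiopoietin-like proteins resemble the angiopoietins in sequence, and several of them set where dietary and hepatic triglyceride is taken up. ANGPTL4 unfolds lipoprotein lipase, the enzyme that releases fatty acids from circulating triglyceride, and its gene is a classic target of the fatty acid receptor PPARα, while ANGPTL8 is known as a feeding-induced factor in the inhibition of the same enzyme. The other genes encode a stress hormone of the TGFβ superfamily (GDF15), a subunit of activin E (INHBE), 2 cystatin-like plasma proteins (fetuin-A from Ahsg and fetuin-B from Fetub) and a chemotactic factor (LECT2).

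Total counts ranged from 30603080 to 43434139 per library, and values are given as CPM, counts scaled by the library total, after TMM normalization unless stated otherwise. Nampt itself was at 11.8 to 15.3 CPM in the 5 NAMPT LKO Fasting livers and at 63.0 to 141 CPM in the 3 that were WT Fasting, which gave a log2 fold change of -2.81 (SE 0.22, adjusted p = 0.00102, edgeR quasi-likelihood test). The mitochondrial share of counts was 21.1% in NAMPT LKO Fasting mouse 5 and 7.42% to 12.9% in the other libraries. Genes of high GC content were also lower in mouse 5 than in the other 4 NAMPT LKO Fasting livers (Spearman correlation of the deviation with GC content -0.55 over 13369 genes, against 0.14 to 0.37 for the other 4 livers in turn). Hepatocyte markers such as Alb, Ttr and Apoa1 summed to 78853 to 113067 CPM, scaled by the library total, in every library. The labels describe the libraries as separate mice. The edgeR p-values rest on a spread between mice that was estimated over all groups in 1 fit. The 5 NAMPT LKO Fasting mice contribute more to it than the WT groups of 2 and 3 mice, whose own spread is poorly known. In whole tissue, fewer cells of a type and less RNA per cell cannot be told apart.

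Of the 8 genes, Angptl8 is the one with the largest difference between fasted and refed livers below, and its proximal promoter is shown for that reason. Promoters came from a table made from RefSeq for GRCm38.p6, in which 7 of the 8 genes were matched. The promoter of Angptl4 was not analysed here. Angptl8 lies on the plus strand of chromosome 9, and the 250 bases before its start, chr9:21835260-21835509 of GRCm38.p6, read from 5′ to 3′, with capitals marking the single match to any of the 8 motifs searched.

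Angptl8: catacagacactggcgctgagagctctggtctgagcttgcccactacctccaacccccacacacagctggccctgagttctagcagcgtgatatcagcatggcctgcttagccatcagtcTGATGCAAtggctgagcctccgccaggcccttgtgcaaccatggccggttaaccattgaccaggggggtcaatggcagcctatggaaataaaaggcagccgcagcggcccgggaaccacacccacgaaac

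The motifs were read on both strands of 32851 promoter windows of this length, and each is given with the share of those windows that held it. The TATA box was searched as TATAAA (12.4% of windows) and the box named after its letters as CCAAT (33.8%). An E-box was searched as CACGTG (6.02%), and forkhead-type sites in the form TGTTTAC (3.17%) or in the form TGTTTGC (4.30%). For hepatocyte nuclear factors the HNF4-type letters were CAAAGTCC (1.20%), whereas the HNF1-type letters were GTTAAT (6.43%). The last motif, the core of the composite site that C/EBP and ATF proteins are known to share, was searched as TGATGNAA (3.45%). It is this composite core that the capitals mark in Angptl8, at bases -130 to -123 from the start. Inhbe also held the composite core, on the opposite strand at bases -181 to -174, and a CCAAT box at bases -55 to -51. Fetub held a TATA box at bases -31 to -26 and the more frequent of the forkhead forms at -42 to -36. It also held a CCAAT box on the opposite strand at -218 to -214. The GENCODE annotation places another Fetub start upstream of the TATA box and the forkhead form, so both lie within the span of that transcript. Ahsg held the same forkhead form as Fetub, at bases -79 to -73. The HNF1-type letters were found in Lect2 at bases -78 to -73 and, on the opposite strand, in Gdf15 at -76 to -71. Angptl6 held none of the 8 motifs, no matches listed here overlapped each other, and the E-box, the other forkhead form and the HNF4-type letters were found in none of the 7 promoters. These are matches of letters in a short window and say nothing of which proteins bind there.

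Among the 8 genes, fasted and refed WT livers differed most in Angptl4 and Angptl8, whose products act on the same lipase. Angptl4 was 5.20-fold higher and Angptl8 11.2-fold lower in WT Fasting than in WT Refed livers, and these 2 of the 8 genes passed an adjusted p of 0.05. Among all genes tested, 946 of 13444 passed, or 7.04%. At an unadjusted p under 0.05 there were 4 of the 8 genes (Angptl4, Angptl8, Inhbe and Fetub), against 22.3% of all genes. The livers of the WT Fasting and WT Refed groups did not overlap for 6 of the 8 genes, 3 higher and 3 lower, against 49.7% of all genes tested. The median log2 fold change was 0.14 over the 8 genes and 0.04 over all genes tested.

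**Figure D1:**
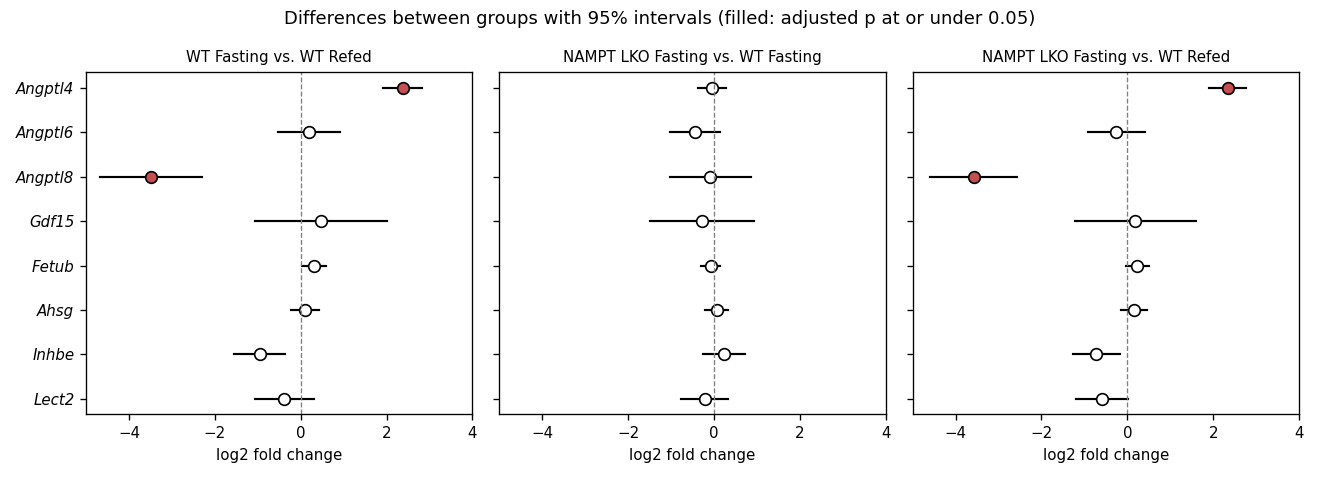
Log2 fold change (horizontal axis) of each of the 8 genes (rows) in the 3 comparisons, with the 95% interval from edgeR's quasi-likelihood fit as a line and a filled point where the adjusted p was at or under 0.05. Angptl4 (2.38) and Angptl8 (-3.49) are filled in the left panel and no gene is filled in the middle panel, where the points lie between -0.44 and 0.24.

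Angptl4 (ENSMUSG00000002289, chromosome 17, 33773750 to 33781575, minus strand of GRCm38) encodes the fasting-associated inhibitor of lipoprotein lipase. It was at 54.1 and 43.0 CPM in the 2 WT Refed livers and at 272, 239 and 247 CPM in the 3 WT Fasting livers. The 5 NAMPT LKO Fasting livers held 278, 269, 281, 198 and 200 CPM. Every fasted liver, of either genotype, was thus above both refed livers, and the lowest fasted value came from a NAMPT LKO Fasting mouse. The log2 fold change between WT Fasting and WT Refed livers was 2.38 (SE 0.21, 95% interval 1.92 to 2.83, edgeR adjusted p = 0.000253). With each library left out in turn it stayed between 2.21 and 2.54. Angptl4 is also transcribed in adipocytes, whose defining markers Adipoq, Lep, Retn and Plin1 had at most 9 counts in any library. Of the further adipocyte markers, Fabp4 had 224 to 494 counts and Cfd 6 to 71. The whole list of 8 adipocyte markers includes the liver-expressed genes Car3 and Pck1. It summed to 2369 to 2572 CPM in WT Refed, 4390 to 4961 CPM in WT Fasting and 3169 to 4732 CPM in NAMPT LKO Fasting livers. Pck1 alone was at 1612 to 4646 CPM over all libraries, scaled by the library total like these sums.

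Angptl8 (ENSMUSG00000047822, chromosome 9, 21835510 to 21837346, plus strand) encodes the feeding-associated protein of the family, and its promoter is the one printed above. WT Refed livers held 152 and 202 CPM, from 6774 and 8748 counts. WT Fasting livers held 6.18, 18.4 and 22.7 CPM, from 258, 592 and 1003 counts. NAMPT LKO Fasting livers held 13.4, 11.9, 19.5, 22.7 and 6.27 CPM. The refed livers stood far above all 8 fasted livers, which varied among themselves by up to 3.68-fold within WT Fasting and 3.63-fold within NAMPT LKO Fasting livers. The log2 fold change between WT Fasting and WT Refed livers was -3.49 (SE 0.54, 95% interval -4.69 to -2.29, edgeR adjusted p = 0.00466). Without WT Refed mouse 2 it was -3.28 with an adjusted p of 0.0510 by the edgeR test, which no longer passed. Angptl8 lies inside the span of Dock6, a guanine nucleotide exchange factor gene on the opposite strand, with 0 exonic bases shared. Dock6 was lower in the WT Fasting than in the WT Refed livers without passing the test (287 to 662 counts over all libraries, log2 fold change -0.33, edgeR adjusted p = 0.336).

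The relation of the 2 genes turned over between refed and fasted livers when both were expressed per exonic length (RPKM, counts scaled by exonic length and library total). The ratio of Angptl4 to Angptl8 RPKM was 0.0938 and 0.0560 in the 2 WT Refed livers. It was 11.6, 3.42 and 2.85 in WT Fasting livers and 5.47, 5.97, 3.79, 2.29 and 8.39 in NAMPT LKO Fasting livers. Angptl8 mRNA therefore exceeded Angptl4 mRNA per length in both refed livers, and Angptl4 exceeded Angptl8 in all 8 fasted livers.

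**Figure D2:**
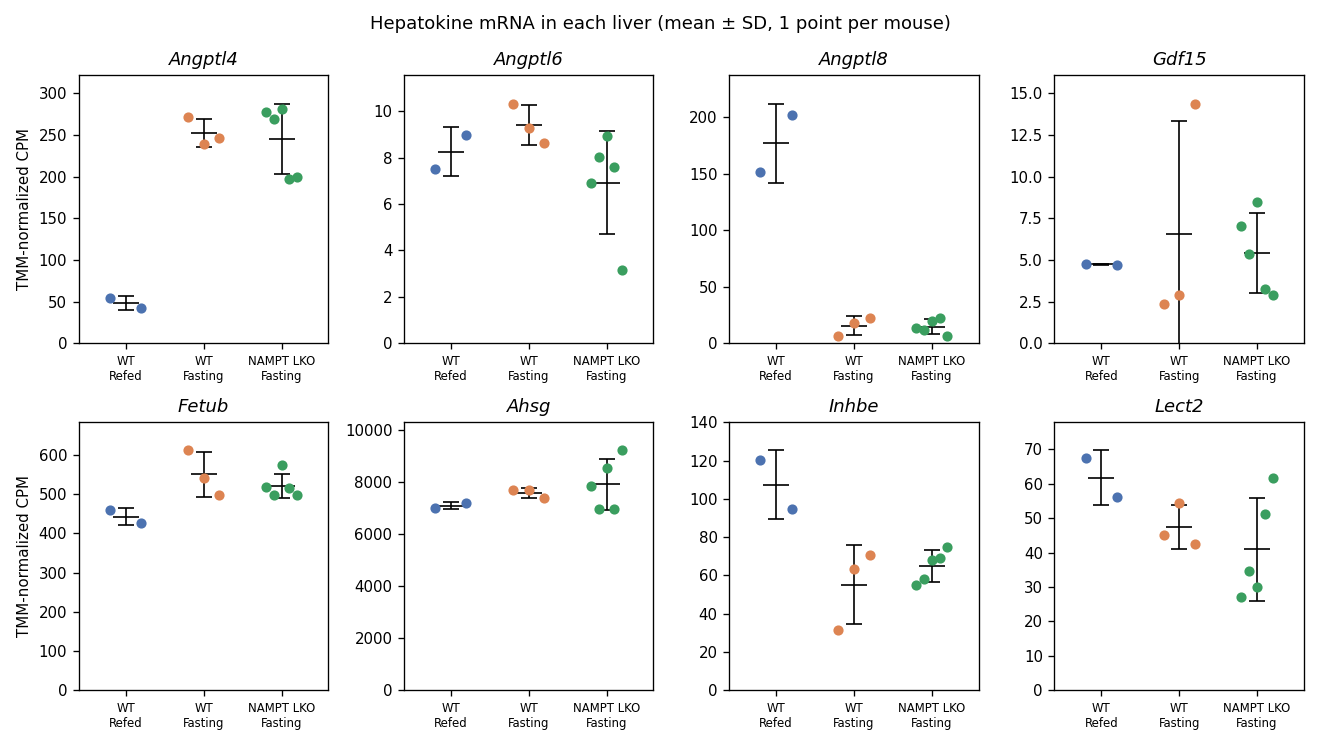
TMM-normalized CPM (vertical axis, from 0) of the 8 genes in each liver, with 1 point per mouse and bars for the mean ± SD of 2 WT Refed, 3 WT Fasting and 5 NAMPT LKO Fasting livers. Angptl4 and Angptl8 separate refed from fasted livers, whereas Gdf15 in WT Fasting livers is spread from 2.35 to 14.4 CPM, so that its lower SD bar runs off at 0.

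Angptl6 (ENSMUSG00000038742, chromosome 9, 20873809 to 20879727, minus strand), a circulating angiopoietin-like growth factor, was expressed at a low level. WT Refed livers held 7.51 and 8.99 CPM and WT Fasting livers 10.3, 9.27 and 8.63 CPM, with overlap between them. NAMPT LKO Fasting livers held 6.91, 8.01, 8.95, 7.57 and 3.16 CPM. The lowest value came from mouse 5, which had 107 counts, and the GC content of Angptl6 (63.1%) is above that of 99.2% of the genes tested. Its part in that value was not tested. The log2 fold change between WT Fasting and WT Refed livers was 0.19 (95% interval -0.54 to 0.92, edgeR adjusted p = 0.787). Angptl6 shares 264 exonic bases with A230050P20Rik on the plus strand, and no source used here states whether the counting used strand.

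The other genes of the family did not follow Angptl4 or Angptl8 past the test. Of 9 other angiopoietins, angiopoietin-like genes and their receptors, 6 could be tested and 0 passed between WT Fasting and WT Refed livers (median log2 fold change 0.13). Of 15 genes of lipoprotein lipase and triglyceride clearance, 0 passed in the same comparison, with 13 of the log2 fold changes above 0 and a median of 0.21. Lpl, the target of these inhibitors, had a log2 fold change of -0.52 (edgeR adjusted p = 0.398).

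Inhbe (ENSMUSG00000047492, chromosome 10, 127349402 to 127351772, minus strand) encodes the inhibin βE subunit, a liver-enriched member of the activin family. It was at 120 and 94.7 CPM in WT Refed livers and at 31.7, 63.4 and 70.6 CPM in WT Fasting livers. NAMPT LKO Fasting livers held 55.0, 58.1, 68.0, 69.0 and 75.1 CPM. All 8 fasted livers lay below both refed livers, with the lowest value in WT Fasting mouse 1. The log2 fold change of -0.96 (SE 0.27, 95% interval -1.56 to -0.36, unadjusted p = 0.00498 and adjusted p = 0.0610 in edgeR) did not pass the threshold. It did pass without WT Fasting mouse 3 (-1.19, edgeR adjusted p = 0.0375) and by DESeq2 (adjusted p = 0.0109). It also passed by edgeR's exact test (adjusted p = 0.0171), limma's voomWithQualityWeights (adjusted p = 0.00555), with library size alone and without the filter. DESeq2, the exact test and voomWithQualityWeights called 12.2%, 8.87% and 24.8% of all genes, against 7.04% in the main test. Inhbe did not pass without WT Fasting mouse 2 (-1.07, edgeR adjusted p = 0.0955) or with these 2 groups alone (-0.97, edgeR adjusted p = 0.111). Nor did it pass with RLE size factors, filterByExpr or mitochondrial genes left out. Leaving out WT Fasting mouse 1 moved its log2 fold change to -0.69, which did not pass (edgeR adjusted p = 0.0638). Leaving out WT Refed mouse 1 moved it to -0.79, and leaving out WT Refed mouse 2 moved it to -1.13.

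Of 16 further genes of activin and inhibin signalling, 13 could be tested and 0 passed between WT Fasting and WT Refed livers. Inhbc, whose subunit βC is likewise a liver product, was at 89.2 ± 21.1 CPM (SD, n = 2) in WT Refed and 72.4 ± 9.64 CPM in those of WT Fasting mice (SD, n = 3, log2 fold change -0.30, edgeR adjusted p = 0.416). Inhba and Inhbb, the subunits of activins A and B, had log2 fold changes of -0.31 and 0.94 without passing the test. Inhbe and Inhbc were at 51.9 and 46.8 RPKM in WT Refed livers, against 3.10 RPKM for Inhba and 0.765 RPKM for Inhbb.

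Gdf15 (ENSMUSG00000038508, chromosome 8, 70629393 to 70632456, minus strand) encodes a stress-induced hormone that acts on the brainstem receptor GFRAL with its co-receptor RET. The WT Refed livers held 4.75 and 4.73 CPM and the WT Fasting livers 2.35, 2.91 and 14.4 CPM. NAMPT LKO Fasting livers held 7.04, 5.35, 8.47, 3.26 and 2.93 CPM. WT Fasting mouse 3 thus exceeded every other liver, while the other 2 WT Fasting livers lay below both WT Refed livers. With all libraries the log2 fold change between WT Fasting and WT Refed livers was 0.47 (95% interval -1.07 to 2.01, edgeR adjusted p = 0.742), and without WT Fasting mouse 3 it was -0.86 (edgeR adjusted p = 0.342). The same mouse had the highest Nampt of the WT Fasting livers, at 141 CPM, and its Kupffer cell and macrophage markers summed to 447 CPM, against 162 to 348 CPM in the other 9 livers. Their part in the Gdf15 value was not tested. Gfral had 0 counts in every library, at which up to 3 counts per library remain possible, and Ret had at most 2.

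Ahsg and Fetub, the fetuin genes, are neighbours on chromosome 16. Ahsg (ENSMUSG00000022868, 22892042 to 22899438, plus strand) encodes fetuin-A, known as a carrier of calcium phosphate and an inhibitor of the insulin receptor kinase, and ends 18943 bases before Fetub (ENSMUSG00000022871, 22918382 to 22939766, plus strand), whose product fetuin-B inhibits the protease ovastacin. Ahsg took 0.688% to 0.869% of all counts. It was at 6994 and 7199 CPM in WT Refed, 7696, 7708 and 7382 CPM in WT Fasting, and 7862, 6978, 8532, 6970 and 9225 CPM in NAMPT LKO Fasting livers. WT Fasting livers did not overlap WT Refed livers, but the log2 fold change was 0.10 (95% interval -0.22 to 0.42, edgeR adjusted p = 0.745).

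Fetub was at 459 and 427 CPM in WT Refed, 611, 541 and 498 CPM in WT Fasting, and 518, 498, 573, 516 and 498 CPM in NAMPT LKO Fasting livers. All 8 fasted livers were above both refed livers. The difference between WT Fasting and WT Refed livers was 1.24-fold, a log2 fold change of 0.31 (SE 0.13, 95% interval 0.03 to 0.60, edgeR adjusted p = 0.180). It passed by limma's voomWithQualityWeights alone among the other tests run (adjusted p = 0.0183). Over the 10 livers Ahsg spanned 1.32-fold and Fetub 1.43-fold, against 6.54-fold for Angptl4 and 32.6-fold for Angptl8.

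The fetuin genes lie in a stretch of 190027 bases with 3 more genes of cystatin-like plasma proteins, Hrg (histidine-rich glycoprotein) and the kininogen genes Kng2 and Kng1. These 3 genes had log2 fold changes of 0.39, 0.26 and 0.17 between WT Fasting and WT Refed livers and did not pass the test. Of 7 cystatin-like genes listed, 5 could be tested and 0 passed in this comparison, and their median log2 fold change was 0.26.

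Lect2 (ENSMUSG00000021539, chromosome 13, 56542460 to 56548538, minus strand) encodes leukocyte cell-derived chemotaxin 2. WT Refed livers held 67.3 and 56.0 CPM and WT Fasting livers 45.1, 54.5 and 42.6 CPM, without overlap. NAMPT LKO Fasting livers held 26.9, 34.7, 30.0, 51.2 and 61.7 CPM, which ran from below every WT liver to within the refed range. The highest of these 5 values came from mouse 5. Between WT Fasting and WT Refed livers the log2 fold change was -0.38 (95% interval -1.06 to 0.30, edgeR adjusted p = 0.512).

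Per exonic length, Ahsg was the most abundant of the 8 mRNAs in each group and Gdf15 the least. In WT Refed livers the means ran from Ahsg (4961 RPKM) through Fetub (238), Angptl8 (211), Lect2 (72.5), Inhbe (51.9), Angptl4 (15.2) and Angptl6 (5.38) to Gdf15 (2.64). Fetub and Angptl8 overlapped there, and the other neighbours in this order did not. WT Fasting livers had the order Ahsg (5099 RPKM), Fetub (285), Angptl4 (76.1), Lect2 (53.3), Inhbe (25.6), Angptl8 (18.0), Angptl6 (5.89) and Gdf15 (3.55). Inhbe overlapped Angptl8 in that group, as Angptl6 overlapped Gdf15. Angptl8 thus had rank 3 of 8 in refed and rank 6 in fasted WT livers, and Angptl4 rank 6 in refed and rank 3 in fasted WT livers. The order of the means in NAMPT LKO Fasting livers was the same as in WT Fasting livers, with 5176 RPKM for Ahsg, 264 for Fetub, 72.8 for Angptl4, 44.3 for Lect2, 29.4 for Inhbe, 16.9 for Angptl8, 4.32 for Angptl6 and 2.88 for Gdf15. From Angptl4 to Angptl8 each neighbour in it overlapped the next, as did Angptl6 and Gdf15.

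**Figure D3:**
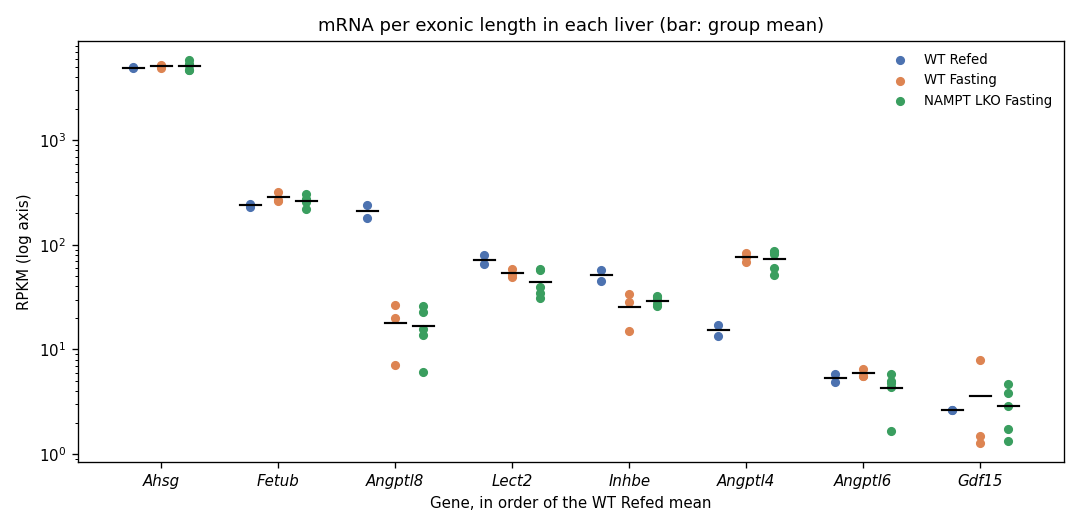
RPKM on a log axis for the 8 genes, with 1 point per liver, a bar for each group mean and genes in the order of the WT Refed mean. Ahsg lies between 4961 and 5176 RPKM in the means. Angptl8 is at 211 RPKM in WT Refed and 18.0 in WT Fasting livers, and Angptl4 is at 15.2 and 76.1.

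Among 20 other hepatokine genes, 3 passed between WT Fasting and WT Refed livers, against 7.04% of all genes tested. Igfbp1, whose product binds insulin-like growth factors, was at 1.75 and 0.761 CPM in WT Refed and 563, 91.3 and 103 CPM in WT Fasting livers (log2 fold change 7.65, edgeR adjusted p = 0.00376). Fgf21, a fasting hormone of the liver, was at 1.26 and 0.461 CPM in WT Refed and 7.50, 3.72 and 8.31 CPM in WT Fasting livers (log2 fold change 2.92, edgeR adjusted p = 0.00987). Manf, a secreted factor of the endoplasmic reticulum stress response, was lower, at 398 and 385 CPM in WT Refed and 55.2, 55.0 and 80.3 CPM in WT Fasting livers (log2 fold change -2.63, edgeR adjusted p = 0.000253). Fasted livers thus differed from refed livers in both directions among the other hepatokines too, and the median log2 fold change of this list was 0.09.

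Genes that respond to the same signals as the hepatokines were counted in the same comparison. Of all genes tested, 7.04% passed in it. Of 16 PPARα target genes, 2 passed as higher in WT Fasting than in WT Refed livers and 0 as lower. These were Pdk4, which restrains glucose oxidation (log2 fold change 3.00), and the lipid droplet gene Plin2 (1.09), and the list median was 0.48. Of 13 tested genes of the ATF4 and CHOP stress response, 5 passed as higher and 1 as lower, with a median of 0.70. The higher ones were Ddit4 (2.54), Sesn2 (1.77), Cebpb (1.48), Trib3 (1.11) and Ppp1r15a (0.70). The lower one was Ddit3 (-1.16), which encodes CHOP, all given as log2 fold changes. Of 12 receptors and partners of the 8 hepatokines, 7 could be tested and 0 passed.

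**Figure D4:**
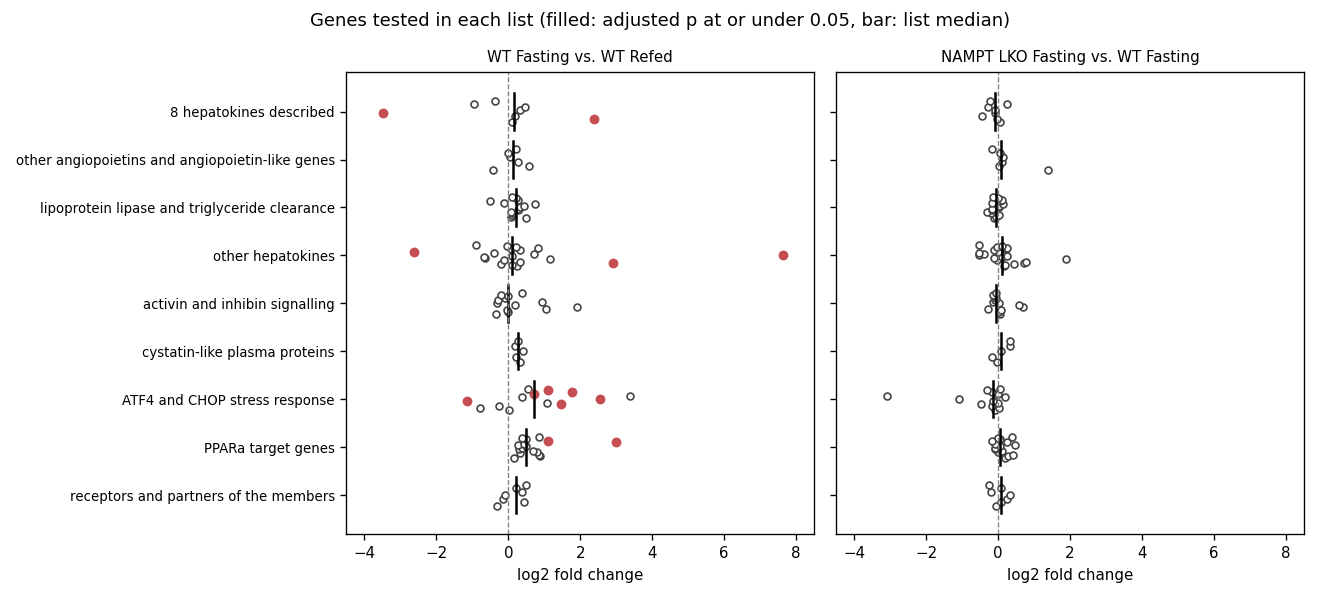
Log2 fold change (horizontal axis) of every gene tested in each list (rows, list median as a bar), for WT Fasting vs. WT Refed on the left and NAMPT LKO Fasting vs. WT Fasting on the right, filled where the adjusted p was at or under 0.05. Filled points on the left belong to the 8 hepatokines, the other hepatokines and the ATF4 and PPARα lists, and the right panel has none.

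Between fasted livers with and without hepatocyte NAMPT, 0 of the 8 genes passed in edgeR's quasi-likelihood test, and 0 had an unadjusted p under 0.05. Over all genes tested, 1 passed, or 0.00744%, and that gene was Nampt, while 6.03% had an unadjusted p under 0.05. The 2 groups overlapped for all 8 genes, and 3.99% of all genes did not overlap. DESeq2, edgeR's exact test and limma's voomWithQualityWeights likewise called 0 of the 8. The 8 log2 fold changes ran from -0.44 (Angptl6) to 0.24 (Inhbe), with a median of -0.09 against 0.00025 over all genes.

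The precision of this comparison differed between the genes. For Angptl4 the log2 fold change was -0.04 (95% interval -0.37 to 0.29), for Fetub -0.08 (-0.31 to 0.14) and for Ahsg 0.06 (-0.20 to 0.32). Wider intervals were found for Inhbe (0.24, from -0.26 to 0.73) and Lect2 (-0.21, from -0.76 to 0.34). The Lect2 value was -0.41 without NAMPT LKO Fasting mouse 5 and -0.09 without mouse 1, and passed in neither case. Angptl6 (-0.44, from -1.02 to 0.13), Angptl8 (-0.09, from -1.04 to 0.85) and Gdf15 (-0.28, from -1.49 to 0.93) had intervals that included a change of 1 on the log2 scale. For Gdf15 the value was 1.04 without WT Fasting mouse 3 (edgeR adjusted p = 0.989), so its direction rested on that liver. In NAMPT LKO Fasting mouse 5, Angptl6, Angptl8 and Gdf15 deviated from the mean of the other 4 livers by -1.29, -1.37 and -0.94 on the log2 scale, and their GC contents of 63.1%, 60.6% and 61.3% were above 96.9% or more of the genes tested, whereas the other 5 genes had 47.9% to 52.5%. Of those 5 genes, Lect2 deviated in mouse 5 by 0.83 and the others by -0.35 (Angptl4) to 0.29 (Ahsg). The part of GC content in these deviations was not tested. Without that liver the log2 fold change of Angptl6 against WT Fasting livers was -0.26.

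None of these lists of related genes held a gene that passed between the fasted groups in edgeR's test. Fgf21 was at 10.7, 13.3, 14.0, 5.43 and 9.99 CPM in NAMPT LKO Fasting livers (log2 fold change 0.71, 95% interval -0.10 to 1.52, edgeR adjusted p = 0.837). Igfbp1 was at 226, 112, 135, 79.7 and 316 CPM in the same livers (log2 fold change -0.54, edgeR adjusted p = 0.875). Manf did not separate the fasted groups either, with a log2 fold change of -0.001 and an interval of -0.40 to 0.40. Markers of cholangiocytes, the cells of the bile ducts, summed to 35.0 to 51.2 CPM in NAMPT LKO Fasting and 15.3 to 21.2 CPM in WT Fasting livers, with all 5 tested markers above 0 in log2 fold change and Cftr at 14 counts or fewer. Stellate cell markers summed to 250 to 325 CPM in NAMPT LKO Fasting and 211 to 267 CPM in WT Fasting livers, with all 8 markers above 0 in log2 fold change (median 0.27). Kupffer cell and macrophage markers summed to 162 to 348 and 216 to 447 CPM, with all 7 below 0 (median -0.28). No marker of these 3 lists passed the test. The lowest edgeR adjusted p among the cholangiocyte markers was 0.0603, and their median log2 fold change was 1.64. Their part in the values of the 8 genes was not tested.

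NAMPT LKO Fasting livers were also set against WT Refed livers, a comparison that differs in genotype and feeding at once and shares its refed libraries with the first one. Angptl4 (log2 fold change 2.34, SE 0.20, edgeR adjusted p = 0.000124) and Angptl8 (-3.58, SE 0.46, edgeR adjusted p = 0.00112) passed, and 11.2% of all genes tested did. Both also passed with each library left out in turn. The 2 groups did not overlap for 4 of the 8 genes (Angptl4 and Fetub higher, Angptl8 and Inhbe lower), against 33.5% of all genes. Inhbe had a log2 fold change of -0.72 (edgeR adjusted p = 0.0861). It passed by DESeq2 (adjusted p = 0.0372), edgeR's exact test (adjusted p = 0.047) and voomWithQualityWeights (adjusted p = 0.0117). These called 16.7%, 12.8% and 31.8% of all genes. Inhbe also passed without the filter and with these 2 groups alone. It did not pass with library size alone or without NAMPT LKO Fasting mouse 5 (edgeR adjusted p = 0.052 and 0.0569). Lect2 had a log2 fold change of -0.59 (edgeR adjusted p = 0.207). The Lect2 value became -0.79 without NAMPT LKO Fasting mouse 5 (edgeR adjusted p = 0.0308). Without that mouse 21.2% of all genes passed, against 11.2% with it. In the related lists, 9 of 16 PPARα target genes passed as higher. Of 13 ATF4 and CHOP genes 4 passed as higher and 1 as lower. Among the 20 other hepatokine genes 2 passed as higher and 3 as lower. Kng1 and Kng2, neighbours of the fetuin genes, passed as higher by 0.50 and 0.59 on the log2 scale, and Hrg (0.48) did not pass. A single gene passed as higher in each of the lists of triglyceride clearance (Lipc), activin signalling (Fstl1) and receptors and partners (Insr). All 3 were named after their values were seen. So were the markers Epcam and Spp1 of cholangiocytes and Col1a1 of stellate cells, which also passed as higher, while 0 of 7 Kupffer cell and macrophage markers passed.

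For each hepatokine, the genes with the most similar levels over the 10 livers were taken from 9139 genes that averaged 5 CPM or more, by Pearson's r of log2 CPM. These r values describe 10 libraries that share group, depth and composition, and say nothing of shared function. Angptl4 was closest to Tcp11l2 (r = 0.987) and Depp1 (r = 0.985). The mean of Depp1 was 5.18 CPM in WT Refed and 41.7 CPM in WT Fasting livers. Angptl8 was closest to St3gal4 (r = 0.988) and Trim14 (r = 0.980), whose means in these groups were 89.4 and 49.3 CPM and 30.4 and 13.6 CPM. Inhbe was closest to Mpzl2 (r = 0.950) and Efcab14 (r = 0.926), Lect2 to Tfpi2 (r = 0.961) and Atp6v1h (r = 0.955), Fetub to Tgfbr3 (r = 0.930) and Cnst (r = 0.926), and Ahsg to Tmem220 (r = 0.941) and Dpys (r = 0.928). Angptl6 had Tnk2 (r = 0.973) and Tradd (r = 0.963) nearest to it, and Gdf15 had Flna (r = 0.928) and Map4 (r = 0.923).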

How the data were processed

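RNA-seq libraries of 10 mouse livers were analysed, in 3 groups named from the labels. The authors used STAR to align single reads and featureCounts to count those with a unique alignment on each Ensembl gene, and the submitters' processing notes give STAR 2.5.1a, featureCounts 1.4.6-p5 and GRCm38, whereas the paper's methods give other versions. Whether counting used strand is not given in the sources used here. The deposited counts were tested without change. The deposited CPM and deposited RPKM were checked to be those counts scaled by the library total and by exonic length.

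For the tests made here, rRNA genes and genes that never exceeded 1 CPM were dropped. The rest were TMM-normalized and fitted in 1 fit of all libraries with edgeR 4.0.16 (quasi-likelihood test, R 4.3.3), with Benjamini-Hochberg adjustment over 13444 genes and a threshold of 0.05. On simulated data of 13183 genes for NAMPT LKO Fasting vs. WT Fasting, this test recovered 69% of genes changed by a log2 fold change of 1. At 2 it recovered 97%, with 2 false calls in all. The counts were drawn independently for each gene, with 200 genes changed and no shift shared between genes. The shares recovered therefore do not give the power for the 8 genes. DESeq2 1.42.0, edgeR's exact test and limma 3.58.1 (voomWithQualityWeights), other normalizations and filters, and fits without each library were alternatives. The 8 genes, the lists of related genes and the markers were chosen with earlier results of these data known. Named from a list are mainly the called genes, at most the 5 with the largest change, and relatives of the 8 genes. Beyond that rule, all 6 called ATF4 and CHOP genes were named, as were Lpl, Gfral and Ret, which were not called. Some listed genes are not reported here. Same-numbered libraries are different mice, so no pairing was used. The limit set by 0 counts covers counting error only.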

Additional observations from a re-analysis of the deposited data

Results flagged for a closer look

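Among the 5 NAMPT LKO Fasting livers, the Fetub value of mouse 3 (573 CPM) stood apart from the others, which lay between 498 and 518 CPM. Its gap to the nearest other value was 0.730 of the group's range, above Dixon's 95% critical value of 0.71 for 5 samples. It was 1 of 8 values tested in this way, of which chance gives 0.4, and Dixon's test was not applied to the WT groups of 2 and 3 mice. In the same liver the summed acute phase genes were at 38847 CPM, against 13242 to 16778 CPM in the other 4 NAMPT LKO Fasting livers. The part of those genes in the Fetub value was not tested.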

How the results depend on the processing

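Of 392 member values recomputed under 21 alternative settings, 354 kept their direction and their side of the threshold, 15 passed in addition and 1 no longer passed (Angptl8 without WT Refed mouse 2). With limma's voomWithQualityWeights, 4 of the 8 genes passed between WT Fasting and WT Refed livers (Fetub and Inhbe in addition, with 24.8% of all genes) and 5 between NAMPT LKO Fasting and WT Refed livers (Lect2 as well, with 31.8% of all genes). With each library left out, 1 to 3 genes passed in the first of these comparisons, 0 between the fasted groups, and 2 to 3 in the last. The cause was not tested. Direction changed in 22 values, none of which passed. For Gdf15 between WT Fasting and WT Refed livers it was -0.41 with voomWithQualityWeights and ran from -0.86 to 0.87 with libraries left out, and against WT Refed livers NAMPT LKO Fasting gave -0.0405 to 0.35. Between the fasted groups voomWithQualityWeights gave 0.0273 for Angptl4, 0.24 for Angptl8, 0.65 for Gdf15 and -0.0258 for Ahsg. With libraries left out the log2 fold change there ran from -0.0949 to 0.0267 for Angptl4, -0.47 to 0.28 for Angptl8, -0.68 to 1.04 for Gdf15, -0.15 to 0.0018 for Fetub, -0.0024 to 0.10 for Ahsg and -0.0421 to 0.45 for Inhbe. Lect2 kept its direction there, from -0.41 to -0.0938 with libraries left out, at -0.48 with voomWithQualityWeights, and at -0.63 over libraries 1 to 3 with or without the block. A replicate block over libraries 1 to 3 of the fasted groups gave 0.13 for Angptl4, 0.0644 for Angptl8 and 0.53 for Gdf15, and the same libraries without it 0.13 for Angptl4 and 0.0811 for Gdf15, with 0 of the 8 genes called in either fit. Deviations of log2 CPM from the group mean correlated by 0.104, 0.0782 and 0.0971 between same-numbered fasted libraries. The mean for other pairs was -0.0514. Such deviations cancel out within the WT Fasting livers, so the other pairs are not an independent baseline. Leaving out a WT Refed mouse assumes that the remaining one varies like the other groups.

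Over all genes, the 946 calls between WT Fasting and WT Refed livers (360 higher) became 1646 with DESeq2, 3331 with voomWithQualityWeights, 1649 with these 2 groups alone, 979 (252 higher) with library size alone, and 107 to 786 with libraries left out. Between the fasted groups the single call became 24 with DESeq2 and with the exact test, 17 without the filter, 3 with filterByExpr, 2 with library size alone and 0 over libraries 1 to 3, with or without the block. Against WT Refed livers, 1510 calls (625 higher) in NAMPT LKO Fasting livers became 4281 with voomWithQualityWeights, 1422 (371 higher) with library size alone, and 227 to 2835 with libraries left out. The lowest counts behind a member were 94 for Gdf15 and 107 for Angptl6. The part of low counts in the width of their intervals was not tested.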
